A study of Mus musculus with 6 samples.

Results

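Small RNA libraries of the Dnmt3L knockout testis and of its wild-type control at 10 dpp (days post partum) were compared, 2 of the 6 libraries of a mouse testis series. Both were chosen by their labels alone. The Dnmt3L WT 10dpp library came from control littermates and the Dnmt3L KO 10dpp library from animals lacking Dnmt3L, on a C57BL/6 background. Each was 1 library made from the pooled whole testes of 3 mice, so germ cells and somatic cells were mixed. Total RNA was extracted, a fraction of 18 to 35 nt was taken, and each library is a list of read sequences with their counts. The Miwi2 WT 10dpp and Miwi2 KO 10dpp libraries, also from pools of 3 mice, served as a reference for the size of differences between libraries. With 1 library per genotype no difference has a replicate check, and no test was made. Intervals in parentheses are exact 95% intervals of a ratio of 2 counts and cover counting error only.

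Dnmt3L is a partner of the enzymes that newly methylate DNA and has no catalytic activity itself. It is expressed in fetal male germ cells, in which transposons become methylated, and males that lack it lose their germ cells after birth. MicroRNAs (miRNAs) are cut by Dicer from hairpins and pair with targets through their seed, whereas piRNAs are longer, are made without Dicer, bind PIWI proteins, often start with U and occur mainly in the germ line. A pool of whole testes therefore carries piRNAs from germ cells and miRNAs from all of its cells. In such bulk RNA, fewer germ cells and less small RNA per germ cell cannot be told apart.

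The WT library held 38069968 reads and the KO library 28701563, of which 92.1% and 95.6% were 18 to 35 nt long. Values are reads per 1000000 reads of the whole library (RPM). Both Dnmt3L libraries of 10 dpp had few long reads: 1.29% (WT) and 0.119% (KO) of reads were 29 to 35 nt, with 11.3% and 14.6% for Miwi2 WT and KO libraries. Lengths were therefore compared one by one, and piRNA-sized reads were taken at 24 to 28 nt. The targeted gene could not be checked: fragments sense to Dnmt3l of 24 to 28 nt numbered 1 (WT) and 0 (KO), and 7 and 3 for Miwi2.

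The mature miRNAs on which the results turn are printed with the seed, bases 2 to 8, in capitals, as RefSeq gives them for GRCm38. The first 6 are among the most abundant in these testes, the next 2 are X-linked and were lower in the KO, and the last 3 come from genes that were called higher.

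miR-10b-5p: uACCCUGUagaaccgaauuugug
miR-22-3p: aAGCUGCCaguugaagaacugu
miR-127-3p: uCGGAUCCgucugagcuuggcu
miR-125a-5p: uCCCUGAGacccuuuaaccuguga
miR-181a-5p: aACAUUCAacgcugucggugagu
miR-148a-3p: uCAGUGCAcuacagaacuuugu
miR-871-3p: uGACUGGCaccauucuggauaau
miR-470-5p: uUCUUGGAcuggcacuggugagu
miR-449a-5p: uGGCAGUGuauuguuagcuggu
miR-141-3p: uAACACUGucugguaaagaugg
miR-205-5p: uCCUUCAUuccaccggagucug

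Reads of piRNA size were fewer in the KO, and miRNA reads made up more of the library. Reads equal to a mature miRNA, with or without added 3′ bases, or lying inside a miRNA gene were 76.4% of the 18 to 35 nt reads in the WT, compared with 88.5% in the KO. The Miwi2 libraries had 53.6% (WT) and 51.2% (KO). At 24 to 28 nt, reads that were not miRNA fell from 103918 RPM in the WT to 38601 RPM in the KO, whereas the Miwi2 WT and KO libraries held 151837 and 146091 RPM. RPM values are shares of 1 library, so a fall of one class and a rise of another cannot be told apart.

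The size of that loss depended on read length. Reads that were not miRNA stood in the KO at 0.706 of the WT level at 18 nt (0.703 to 0.710), at 0.757 at 22 nt (0.755 to 0.759) and at 0.530 at 24 nt (0.527 to 0.532). Beyond 24 nt the ratio fell at each length, through 0.414 at 25 nt, 0.384 at 26 nt, 0.307 at 27 nt and 0.251 at 28 nt. The decline continued to 0.113 at 29 nt and 0.068 at 30 nt. The peak of these longer reads lay at 27 nt in the WT, with 28772 RPM, and at 26 nt in the KO, with 10339 RPM. In the Miwi2 pair, which has its own WT library, the same ratio was between 0.817 and 1.14 from 18 to 30 nt. Reads of miRNAs were higher in the KO at each length from 18 to 25 nt, with a ratio between 1.10 and 1.34. Beyond 25 nt they also fell with length, to 0.823 at 26 nt, 0.697 at 27 nt, 0.545 at 28 nt, 0.131 at 29 nt and 0.104 at 30 nt. These reads include those of the miRNA genes in repeats described below, which were not split off by length. Among reads inside miRNA genes, those with a first U stood at 0.194 at 26 nt and the rest at 0.918. The values were 0.159 and 0.300 at 27 nt, 0.184 and 0.802 at 28 nt, and 0.115 and 0.190 at 29 nt. Whether the size fraction taken differed between the libraries was not tested.

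**Figure D1:**
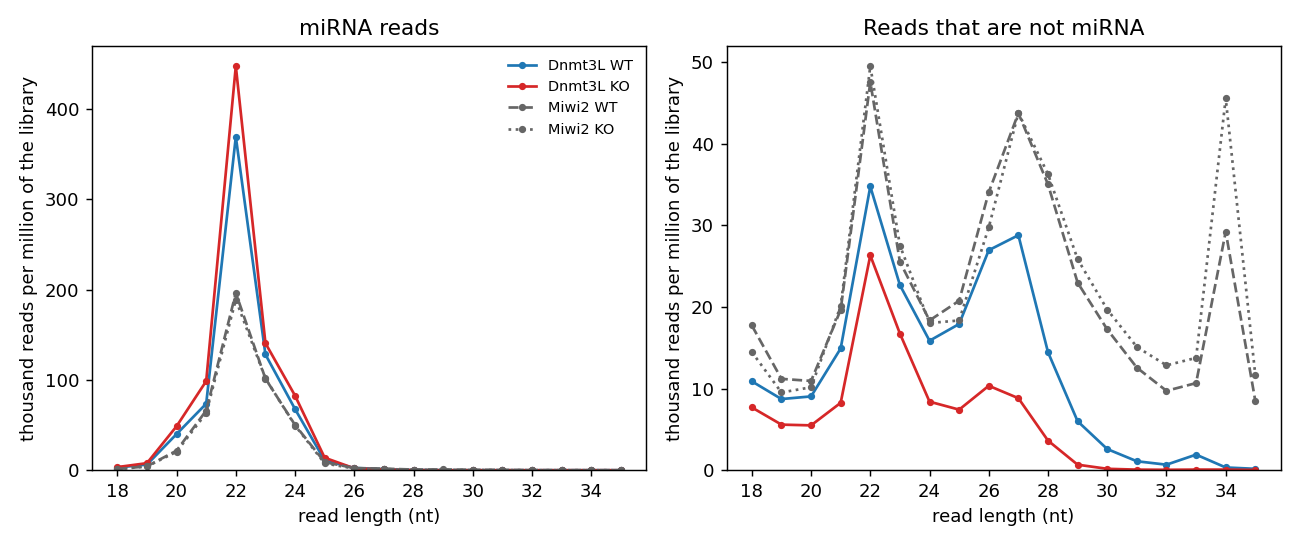
RPM divided by 1000 at each read length for miRNA reads (left) and all other reads (right), 1 pooled library per line. The Dnmt3L KO has a miRNA peak above its WT at 22 nt and a lower peak at 26 to 27 nt, and the Miwi2 pair overlaps at 27 nt.

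Reads sense to a transcript, the class that holds piRNAs of genic origin, showed the strongest fall among the classes at 24 to 28 nt. They fell from 39262 RPM in the WT to 9118 RPM in the KO, a ratio of 0.232 (0.231 to 0.233). Reads antisense to a transcript stood at 0.372 (0.367 to 0.377), and repeat-like reads, those found on either strand in 10 or more annotated genes other than pseudogenes, at 0.338 (0.336 to 0.341). The Miwi2 KO differed from its WT in another way, with a ratio of 0.898 for sense reads, 1.28 for antisense reads and 2.01 for repeat-like reads.

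A first U was common in both Dnmt3L libraries. Among sense reads of 24 to 28 nt it was found in 77.8% (WT) and 73.2% (KO), and A at position 10 in 30.3% and 31.5%. The fall was not limited to reads with a first U. At 28 nt the ratio was 0.176 for sense reads that start with U and 0.219 for the rest, while at 18 nt it was 0.531 and 0.759.

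**Figure D2:**
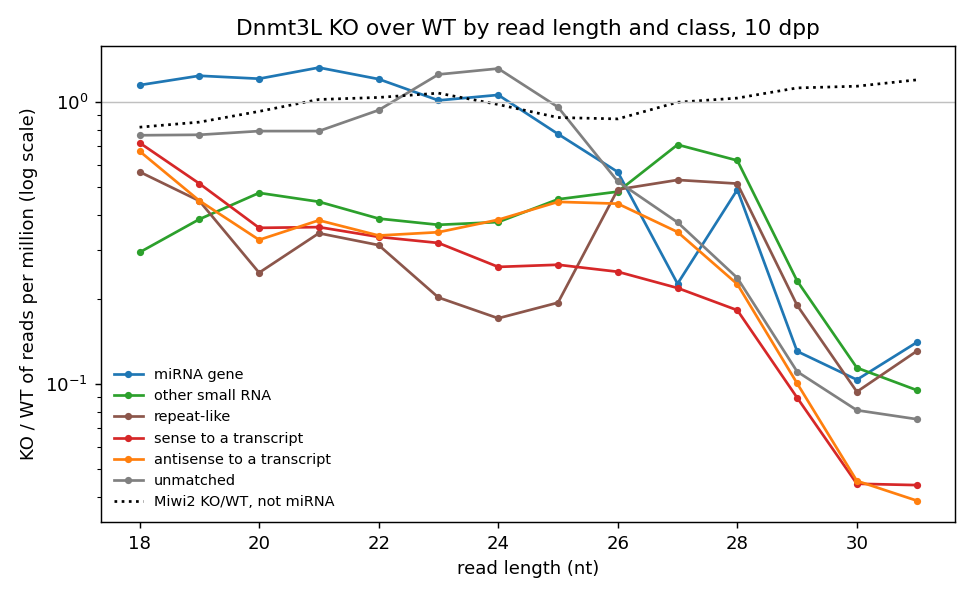
KO over WT of RPM (log axis) at read lengths of 18 to 31 nt for each class of reads, with the Miwi2 ratio of reads that are not miRNA as a dotted line. Sense reads lie at 0.232 over 24 to 28 nt, and each Dnmt3L class reaches its lowest ratio at 30 or 31 nt.

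Most miRNA genes had a higher RPM in the KO, and the genes that were far lower were mainly those whose reads are repeat-like. Of 297 miRNA genes with at least 1000 reads over both libraries, 184 were above 1 and 113 below 1, with a median log2 ratio of 0.49; scaling to miRNA reads lowers each log2 ratio by 0.23 and TMM scaling gives a median of 0.11. A gene was called where its log2 ratio passed 2.29, the size that 95% of miRNA genes stayed within when the Miwi2 WT was set against the Dnmt3L WT. By this rule 4 genes were called higher, 1.35% of those tested, and 70 were called lower, 23.6%. The limit mixes mouse line, litter and library, and a call is a statement of size.

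The most abundant miRNA gene was Mir10b, which lies in the Hoxd cluster (GRCm38 chr2:74726070-74726137). It had 266073 RPM in the WT and 254284 RPM in the KO, with 54295 and 57326 RPM for Miwi2 WT and KO. Both Dnmt3L libraries were therefore far above both Miwi2 libraries, and the genotypes differed little. With miR-10a-5p, whose seed ACCCUGU it shares, miR-10b-5p made up 40.0% of mature miRNA reads in the WT, compared with 31.7% in the KO.

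Mir22, a broadly expressed gene on chromosome 11 (chr11:75463716-75463810), had 21770 RPM in the WT and 43693 RPM in the KO, a ratio of 2.01 (2.002 to 2.013). Mir127, of the imprinted Dlk1-Dio3 cluster (chr12:109592846-109592915), had 22658 RPM in the WT and 35283 RPM in the KO. Mir125a (chr17:17830812-17830879) had 22142 and 27450 RPM. Mir181a-2 and Mir181a-1, which encode the same miR-181a-5p, had ratios of 1.67 and 1.66. Mir148a had 13047 RPM in the WT and 18373 RPM in the KO. The exception beside Mir10b was Mir143, a miRNA of smooth muscle and peritubular cells, with 26091 RPM in the WT and 23517 RPM in the KO. None of these 8 genes was called, and the ratios of 6 lay between 1.24 and 2.01. Under TMM scaling 5 were above 1.

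All 4 genes called higher were scarce in the WT. Mir449a, of the Mir34 and Mir449 family known from meiotic germ cells and ciliated epithelia, had 3.15 RPM in the WT (120 reads) and 96.0 RPM in the KO (2755 reads), a ratio of 30.5 (25.4 to 36.9). The Miwi2 WT had 59.9 RPM and the Miwi2 KO 3.47 RPM, so the Dnmt3L KO and the Miwi2 WT were high and the other two were low. Mir375, a miRNA of endocrine and epithelial cells, had 19.0 RPM in the WT and 158 RPM in the KO, with 108 and 21.3 RPM in the Miwi2 WT and KO. It showed the same order, with the Dnmt3L WT and the Miwi2 KO low.

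Mir141, of the epithelial Mir200 family, had 4.15 RPM in the WT and 39.0 RPM in the KO, a ratio of 9.39. In the Miwi2 WT and KO it had 14.04 and 5.54 RPM. Mir205, an epithelial miRNA, had 6.83 and 48.2 RPM, against 46.4 and 28.3 RPM. For these 4 genes the Dnmt3L WT library was lower than the Miwi2 WT library, and the Miwi2 KO was lower than its own WT. Mir34c, the next in order and not called, had 58.2 RPM in the WT and 220 RPM in the KO. Of 6 genes of the Mir34 and Mir449 family 3 were measured. All 3 were above 1, and 2 under scaling to miRNA reads or by TMM. The third, Mir34a, had 35.7 RPM in the WT and 40.1 RPM in the KO, a ratio of 1.12. The family summed to 103 RPM in the WT and 397 RPM in the KO.

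Of the 8 miRNAs listed as epithelial, 7 were measured, 3 were called higher against 1.35% of all miRNA genes, and 6 were above 1. Their summed level was 325 RPM in the WT and 722 RPM in the KO, against 432 and 380 RPM in the Miwi2 libraries. The 2 with most reads were Mir203, with 132 and 125 RPM, and Mir200b, with 70.0 and 158 RPM. The part of epithelium from beside the testis in the pools was not tested.

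The list of X-linked miRNAs, most of them of the Mir506 family region, which is known for expression in the testis, had a median well below 1, as did only one other list, that of miRNAs in repeats. Of 19 genes measured, 15 were lower in the KO and 4 higher, with a median log2 ratio of -1.01, against 0.49 over all miRNA genes. Under TMM scaling 16 of the 19 were lower. None was called. Mir871 had 17613 RPM in the WT and 5252 RPM in the KO, a ratio of 0.298. Mir470 had 12843 and 4328 RPM, a ratio of 0.337. In the Miwi2 pair both were higher in the KO, Mir871 with 5635 and 11956 RPM and Mir470 with 7413 and 13767 RPM.

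Mir871 and Mir470 held most of the list's reads, which summed to 35075 RPM in the WT and 12008 RPM in the KO, a ratio of 0.342. The clustered Mir465 genes, which share most of their mature sequences so that their reads cannot be split, lay between 0.439 and 0.498. The 4 members above 1 were Mir201, Mir547, Mir501 and Mir532, with ratios of 1.29 to 1.55. Mir501 and Mir532 lie in another part of the X chromosome and are not of the Mir506 region. Of the 17 measured genes of the region itself, a split made after the values were seen, 15 were lower in the KO, with a median log2 ratio of -1.04.

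The medians of the remaining lists with several members lay above 1, under scaling to the library, to miRNA reads and by TMM. All 12 let-7 genes, which repress growth genes in differentiated cells, were above 1, with a median log2 ratio of 0.90 and a range of 0.43 to 1.01, and they were so under all 3 scalings. In the Dlk1-Dio3 cluster 29 of 30 genes were above 1 (28 under TMM), with a median of 0.95. Of 10 genes of the Mir17 and Mir106b clusters, known from proliferating cells, 9 were above 1, with a median of 0.41, and 7 under either other scaling. The 6 genes of the Mir99, Mir100 and Mir125 families were all above 1, with a median of 0.43, and 4 of them under TMM. No gene of these 4 lists was called. Of the 229 miRNA genes with 50% or less repeat-like reads in the WT, 184 were above 1 as well, with a median of 0.63. The let-7 and Dlk1-Dio3 medians lay above that value. The medians of the Mir17 and Mir106b clusters and of the Mir99, Mir100 and Mir125 families lay below it.

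Markers of somatic cells also had a higher RPM, as did 184 of the 229 miRNA genes without mostly repeat-like reads. The direction turned for endothelium under TMM scaling, with a log2 ratio of -0.04. Against the 0.63 median of the 229 genes, the measured genes of endothelium (0.33) and of other blood cells (0.54) were lower. Those of Sertoli cells (0.74), of peritubular cells and fibroblasts (median 1.02) and of red cells (1.08) were higher. Mir202, a Sertoli cell miRNA, had 255 RPM in the WT and 425 RPM in the KO, and in the Miwi2 pair 187 and 309 RPM. Of 6 genes of peritubular cells and fibroblasts 5 were above 1. The list summed to 1.09 of the WT level, as Mir143, its most abundant member, stood at 0.901. Mir126a and Mir126b, of endothelium, together had 582 and 732 RPM. Markers of red cells summed to 16.2 and 34.0 RPM, and those of other blood cells to 118 and 175 RPM. Only 1 gene of the pluripotency clusters could be measured, and these clusters summed to 38.8 RPM in the WT and 36.3 RPM in the KO. The part of a changed mix of cells in the values above was not tested.

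**Figure D3:**
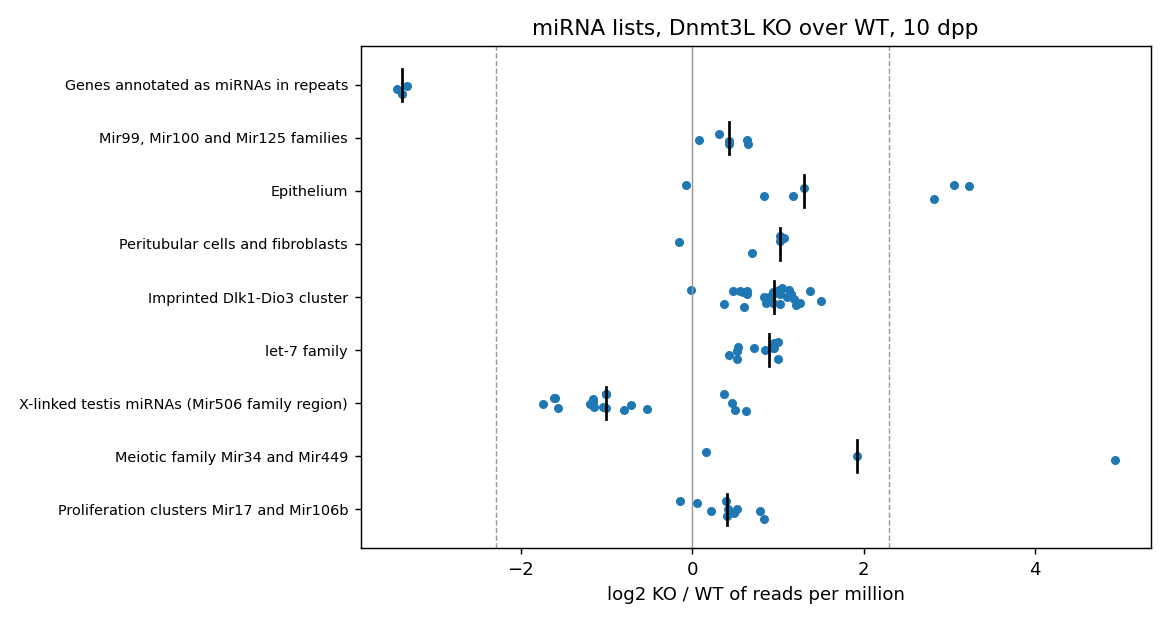
log2 KO over WT of each miRNA gene past the count minimum, by list, with a bar at the list's median and dashed lines at the call limit of 2.29. The X-linked list has a median of -1.01, the let-7 list one of 0.90, and the 3 repeat genes lie below -3.

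The 70 genes called lower were of another kind. In 67 of them more than 50% of the WT reads were sequences found in 10 or more annotated genes other than pseudogenes, and 66 carry only a provisional Gm name. The 68 genes with mostly repeat-like reads summed to 13914 RPM in the WT and 1438 RPM in the KO, a ratio of 0.103, and all 68 were below 1. In the Miwi2 libraries they summed to 16837 and 13409 RPM. Among the other 229 genes, 4 were higher and 3 lower, 184 were above 1 and the median log2 ratio was 0.63.

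Gm27690 was lowest, with 231 RPM in the WT and 13.9 RPM in the KO, a ratio of 0.060 (0.054 to 0.066). Mir3470b (chr16:44013852-44013977), annotated as a miRNA within a repeat, had 137 RPM in the WT and 12.6 RPM in the KO, with 135 and 104 RPM in the Miwi2 pair. Gm26237, Gm23291 and Gm25690 had ratios of 0.077 to 0.091. These genes share reads, so they are not independent of each other. Reads that begin as miR-3470b were mostly longer than its listed mature form: 80.3% in the WT and 69.9% in the KO were 24 to 28 nt long. Its mature sequence, with the seed in capitals, shows the start that those reads share.

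miR-3470b: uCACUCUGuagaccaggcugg

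Mir1195, with reads mostly of fewer than 10 such genes, was also called lower, at 85.5 RPM in the WT and 8.52 RPM in the KO. All 3 measured members of the list of miRNAs in repeats were called, against 23.6% of all miRNA genes. Mir6236, named here after its values were seen, had 59.2 and 10.6 RPM.

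**Figure D4:**
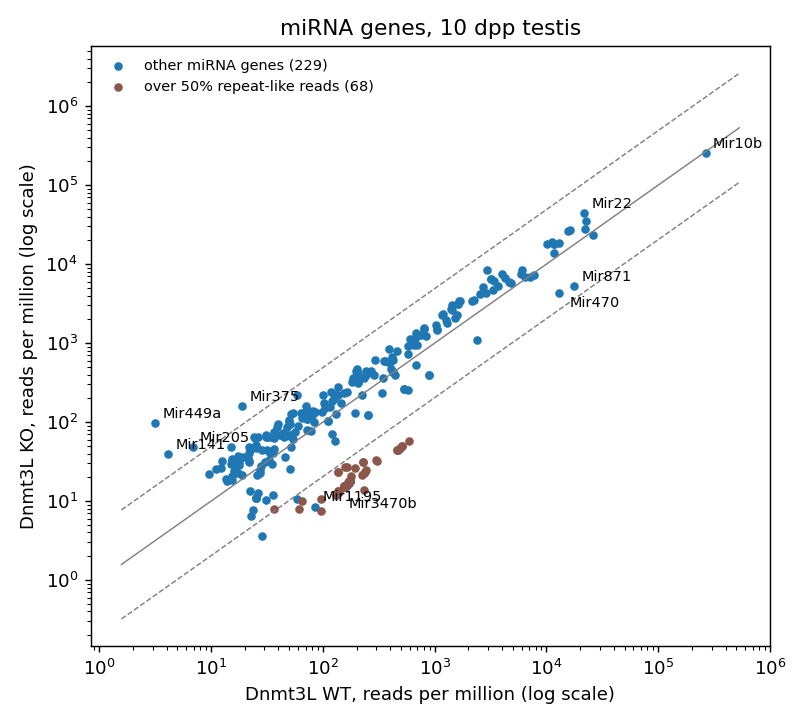
RPM of each miRNA gene in the Dnmt3L WT and KO libraries (log axes), with the line of equality and dashed lines at the call limit. The 68 genes with over 50% repeat-like reads lie in a band below the lower limit or near it, and Mir449a, Mir141, Mir375 and Mir205 lie above the upper limit.

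The ends of miRNA reads differed as well. Over all mature miRNAs, reads shorter than the listed form were 51.0% of miRNA reads in the WT, compared with 45.3% in the KO, and reads equal to it 31.97% and 35.8%. Reads with added A at the 3′ end were 4.02% in the WT, compared with 4.70% in the KO, and reads with added U 3.42% and 4.47%. Pooled shares weigh the abundant miRNAs most. Of 236 mature miRNAs, 150 had a higher A-tailed share in the KO, with a median difference of 0.14 percentage points. The share equal to the listed form was higher in the KO for 107 and lower for 127, with a median difference of -0.13 percentage points. Per miRNA this share thus went the other way from the pooled one. Long forms of miRNAs reach into the piRNA size range. For miR-92a-3p, 61.5% of its WT reads and 66.3% of its KO reads were 24 to 28 nt long, and 31.8% and 33.7% carried an A tail. Reads of miRNA made up 44.2% of all 24 to 28 nt reads in the WT, compared with 72.0% in the KO. Unsplit read counts in this range therefore understate the loss of other reads: all reads of 24 to 28 nt stood at 0.741 of the WT level.

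Other small RNAs were mostly lower in the KO, and the fall differed between kinds. Of 186 genes with at least 500 reads over both libraries, 172 were below 1, with a median log2 ratio of -1.96. TMM scaling, which sets the bulk of these genes equal, adds 1.84 to each log2 ratio and leaves 108 below 1. The limit between WT libraries was wide here, a log2 ratio of 3.53. No gene was called higher and 1 was called lower, 0.538% of those tested. The number lower was 0 under scaling to miRNA reads, for which the limit between WT libraries was computed anew, and 89 with a fixed 4-fold limit. The gene called was Gm22453, an unnamed miscellaneous RNA, with 27.8 RPM in the WT and 2.37 RPM in the KO.

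The reads below are the most abundant single reads of 5 of these genes, which are fragments of known RNAs. They are those of the mitochondrial large ribosomal RNA (bases 1 to 21), of the Y RNA Rny3 (bases 75 to 99 of 102) and of the small nucleolar RNAs Gm23212, Gm25855 and Snord104, with no letters in capitals. The read of mt-Rnr2 held 24.7% of its gene's WT reads, that of Rny3 36.8% and that of Gm23212 37.8%. The single reads of mt-Rnr2, Snord104 and Rny3 were above 1, with ratios of 1.84, 1.78 and 1.07, and that of Gm23212 stood at 0.358.

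mt-Rnr2: actaatcctagccctagccct
Rny3: tcccactgcttcacttgaccagcct
Gm23212: ctgcatgatgacgaacaaatactgact
Gm25855: tatctgtgaggataagtaactctgagga
Snord104: ccgggtgatgcgaatcgtaatctgagc

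mt-Rnr2 fragments stood at 362 RPM in the WT and 451 RPM in the KO, and the printed read at 89.3 and 164 RPM. Rny3, whose RNA binds the Ro60 protein, had 303 and 344 RPM. Gm23212 (chr1:161036682-161036741) had 380 RPM in the WT and 139 RPM in the KO. Gm25855 and Gm23246, both on chromosome 19, had ratios of 0.869 and 0.889, and the mitochondrial serine tRNA mt-Ts2 one of 0.987. Among the 8 genes with most reads, mt-Rnr2, Rny3, mt-Ts2, Gm25855 and Gm23246 were thus within 1.25-fold of the WT under scaling to the library. Gm23212, at 0.366, and Gm27896 and Gm25574, at 0.111 and 0.133, were not. Of these 8 genes, 2 were above 1, and 6 under TMM scaling.

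Gm27896 and Gm25574, unnamed miscellaneous RNAs with many reads, were much lower. Gm27896 had 567 RPM in the WT and 62.8 RPM in the KO, against 968 and 535 RPM in the Miwi2 pair. Gm25574 had 495 and 66.1 RPM, against 998 and 890 RPM. The highest ratios were 1.86 for Snora44, 1.83 for mt-Tm, 1.75 for Snora24, 1.70 for Snord104 and 1.66 for Gm24452. The lowest after Gm22453 were 0.089 for Gm22993, 0.090 for Gm27956, 0.094 for Gm22662 and 0.095 for Snord100. The most abundant read of Snord100 was 33 nt long, a length at which the KO has almost no reads, with 272 WT reads and 2 KO reads.

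By kind, all 62 rRNA genes of the annotation were below 1, and together they stood at 0.230 (0.227 to 0.232). All 26 small nuclear RNA genes were below 1, at 0.257 (0.248 to 0.266). Small nucleolar RNAs were less reduced, at 0.703 (0.696 to 0.709), with 57 of 67 below 1, but 64 of 67 above 1 under TMM scaling, by which 60 of the 62 rRNA genes and 23 of the 26 small nuclear RNA genes stayed below 1. Mitochondrial rRNA stood at 1.06 and mitochondrial tRNA at 0.912. The former sums 2 genes that differed in direction, since mt-Rnr1, named here after its values were seen, had 87.8 RPM in the WT and 26.3 RPM in the KO, a ratio of 0.300, and mt-Rnr2 had a ratio of 1.25. In the Miwi2 pair the rRNA genes had 2904 RPM in the WT and 4329 RPM in the KO. Many of these rRNA and small nuclear RNA genes are near-identical copies that share reads and are not independent.

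The deposited reads also held rRNA fragments that the annotation books elsewhere. Sequences equal to part of an rRNA gene plus 1 to 3 bases at the 3′ end had 10129 RPM in the WT and 3242 RPM in the KO, a ratio of 0.320 (0.318 to 0.322). The coding gene Tmem38b was the second most abundant transcript at 24 to 28 nt, and 99.98% of its WT reads were of this form. Its values cannot be told apart from those of rRNA fragments with added bases.

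Sense reads of 24 to 28 nt fell over nearly all transcripts that carry many of them. Of 548 transcripts with at least 500 such reads over both libraries, 503 were below 1, with a median log2 ratio of -2.93, a fold of 0.132. The limit between WT libraries was a log2 ratio of 1.57. By it 471 transcripts were called lower, 85.9%, and 17 higher, 3.1%, which makes 89.1% called in either direction. TMM scaling sets the bulk of transcripts equal between libraries, and the limit was computed anew under it. The split was then 44 lower and 86 higher, so the direction for a typical transcript rests on scaling to the whole library. Counting each distinct sequence once, scaled to all distinct sequences of the library, gave 12 lower and 3 higher.

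Most transcripts called lower were messenger RNAs, read in their 3′ UTR. Of the 471, 436 were protein-coding, and in 448 more than 50% of the WT reads were found in 1 gene only. Over all 548 transcripts these numbers were 451 (82.3%) and 473 (86.3%). Among reads found in 1 coding gene only, 3′ UTR reads of 24 to 28 nt fell from 22715 to 3200 RPM, a ratio of 0.141 (0.140 to 0.142). Reads in coding sequence fell from 4594 to 1024 RPM, a ratio of 0.223 (0.220 to 0.226). Those in 5′ UTRs had 557 RPM in the WT and 301 RPM in the KO, a ratio of 0.541 (0.527 to 0.554). The order was the same at 18 to 23 nt, at 0.282, 0.654 and 1.21. A single sequence held 25.3% of the WT and 28.1% of the KO 3′ UTR reads of 18 to 23 nt. Without it their ratio was 0.272. Reads of the sense class equal to part of an rRNA gene plus 1 to 3 bases had 4473 RPM in the WT and 1347 RPM in the KO. Those that lie in UTRs or coding sequence, the Tmem38b reads among them, were not split off from these ratios. In the Miwi2 pair 3′ UTR reads of 24 to 28 nt went from 29871 to 17571 RPM.

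Length by length, the 471 transcripts together stood at 0.192 at 24 nt, 0.178 at 25 nt, 0.158 at 26 nt, 0.138 at 27 nt and 0.103 at 28 nt. At 18 to 23 nt they stood at 0.274. The transcripts were chosen by their reads of 24 to 28 nt, so these values describe them and support nothing further.

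The 2 noncoding reads printed here, with the first base in capitals, mark both directions of change. The first is the main read of the most abundant transcript, which fell and overlaps an rRNA repeat. The other is the main read of a transcript that rose (GRCm38 chr10:102320099-102320125, plus strand). The main reads of most other named transcripts lie in UTRs and are given by their counts.

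Gm42418: Taacgaacgagactctggcatgctaac
Gm47031: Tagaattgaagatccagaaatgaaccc

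Gm42418, a lincRNA on chromosome 17 that is known to overlap a copy of the ribosomal RNA repeat, held most reads. It had 2184 RPM in the WT and 435 RPM in the KO, a ratio of 0.199, with 962 and 819 RPM in the Miwi2 pair. Its printed read (GRCm38 chr17:39847736-39847762, plus strand) had 4996 WT reads and 377 KO reads. Gm42418 lies within the span of the annotated rRNA gene CT010467.1 (chr17:39846353-39848827), which is on the other strand. The values of Gm42418 and of its printed read cannot be told apart from those of rRNA fragments. D10Wsu102e had 881 and 231 RPM. Abl2, which encodes a tyrosine kinase, fell from 399 to 59.7 RPM, and Gabpb2, a subunit of the GA-binding protein, from 390 to 45.9 RPM. Tmem245 fell from 332 to 75.03 RPM. In the Miwi2 pair Abl2 had 480 and 287 RPM and Gabpb2 370 and 211 RPM.

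The lowest ratio was that of Bpnt1, a nucleotidase gene, with 56.8 RPM in the WT and 1.22 RPM in the KO, 0.021 of the WT level (0.015 to 0.030). Kif15, a mitotic kinesin, had 18.9 and 0.45 RPM, and Rab11b, a GTPase of recycling endosomes, 27.2 and 0.77 RPM. Cdk6, a cell cycle kinase, had 99.96 and 2.68 RPM. Gm40773, a lincRNA, shares with Cdk6 a main read of 24 nt, which had 3150 WT reads and 54 KO reads. For Gm40773 this 1 sequence carries the result, as only 6 distinct sequences were found in the WT. Bpnt1 rested on 71 distinct sequences in the WT and 13 in the KO, Kif15 on 93.3 and 7 after sharing among genes.

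The 2 germ cell mRNAs that passed the minimum were both called lower, against 85.9% of all transcripts. Dnmt3a, a de novo methyltransferase, had 47.5 RPM in the WT and 4.62 RPM in the KO, and Zbtb16, a factor of spermatogonial stem cells, 14.2 and 1.01 RPM. All 32 germ cell mRNAs summed to 81.6 and 8.66 RPM, a ratio of 0.106 (0.093 to 0.121), and in the Miwi2 pair to 133 and 77.7 RPM. Dnmt3a and Zbtb16 held most of the WT sum, and the median over all 548 transcripts was a fold of 0.132. The 19 mRNAs of the piRNA pathway summed to 24.2 and 3.74 RPM, none past the minimum.

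Fragments of somatic mRNAs were few. Sertoli cell mRNAs summed to 3.73 RPM in the WT and 3.41 RPM in the KO, a ratio of 0.915 (0.700 to 1.19). Peritubular and stromal mRNAs summed to 9.32 and 5.86 RPM, a fall that rests on Pdgfra, a growth factor receptor, with 4.97 and 0.94 RPM. Without it the list had 4.35 RPM in the WT and 4.92 RPM in the KO. Leydig cell mRNAs summed to 1.94 and 0.28 RPM, mainly from Star, a cholesterol carrier of steroid synthesis, with 67 WT reads and 7 KO reads. No member of these 3 lists passed the minimum. Such reads can be degradation fragments as well as piRNAs, and a share of each was not measured.

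A small set of transcripts went up, and its reads were mostly shared among genes. The number higher was 5 under scaling to miRNA reads and 4 with reads of 1 gene only, each with its own limit between WT libraries. Of the 17, 10 were processed pseudogenes and 1 was protein-coding, and a median of 3.72% of their WT reads were found in 1 gene only. Their 24 to 28 nt reads stood at 2.71 at 24 nt, 4.29 at 25 nt, 5.62 at 26 nt, 4.23 at 27 nt and 5.14 at 28 nt. At 18 to 23 nt the pooled ratio was 1.23, but of the 15 transcripts with enough such reads 8 were below 1, with a median log2 ratio of -0.25. These values also chose or follow the choice of the set. The Miwi2 WT helped to set the call limit, and the Miwi2 KO had no part in the choice. In the Miwi2 pair all 17 were above 1, with a median log2 ratio of 4.93 and a range of 3.33 to 5.70. The 17 share reads and are not independent: Gm42669 and Gm47654 have the same main read, as do Gm48416 and Gm47102. Of the 60 transcripts not called, 51 were above 1 in the Miwi2 pair, with a median log2 ratio of 1.52. Of the 471 called lower, 10 were, with a median of -0.89.

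Gm42669, an annotated coding gene, had 5.31 RPM in the WT and 36.1 RPM in the KO, a ratio of 6.81 (5.85 to 7.95). In the Miwi2 pair it had 6.44 and 126 RPM. Gm48416, a processed pseudogene (chr12:63355784-63357904), had 9.52 and 61.8 RPM, against 8.36 and 435 RPM. Its main read, of 28 nt and found in 10 genes, pseudogenes included, had 180 WT reads and 2823 KO reads, a ratio of 20.8 (17.9 to 24.3), and 63 and 7408 in the Miwi2 pair. Both WT libraries were low and both knockout libraries high for this read. Gm47654 had 2.82 and 17.3 RPM, Gm47102 5.44 and 31.9 RPM and Gm47031 10.1 and 57.1 RPM. The printed read of Gm47031, found in 4 genes, had 66 and 409 reads.

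A pair of abundant transcripts was not called and shared their main read, Noct, which encodes Nocturnin, and Gm42860. Noct had 241 RPM in the WT and 358 RPM in the KO, against 295 and 2384 RPM in the Miwi2 pair. Gm42860 had 200 and 234 RPM, against 196 and 1210 RPM. Their shared main read went the other way, from 3513 reads in the WT to 913 in the KO, a ratio of 0.345.

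**Figure D5:**
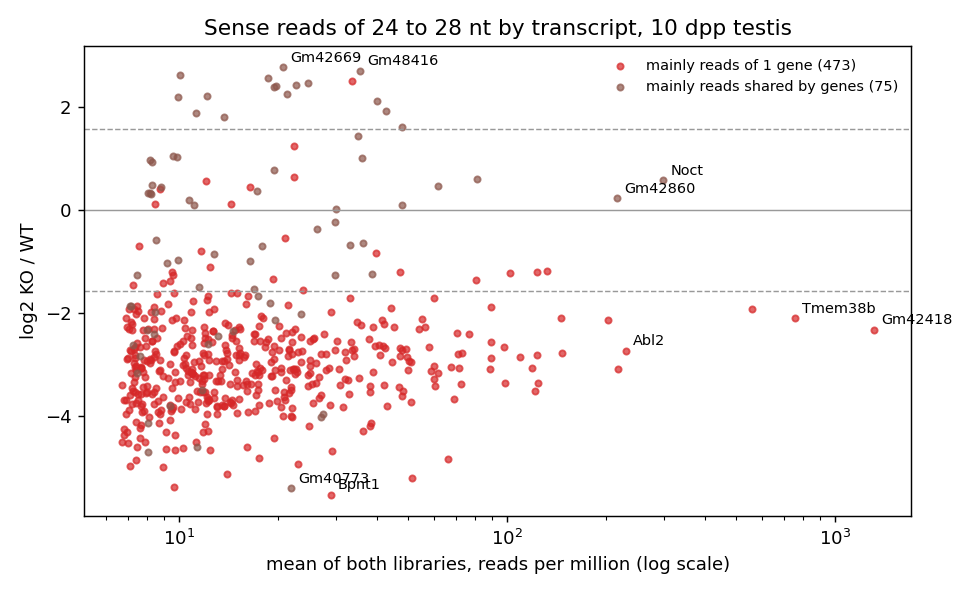
log2 KO over WT of sense reads of 24 to 28 nt against mean RPM (log axis) for 548 transcripts, coloured by whether most WT reads were found in 1 gene, with dashed lines at the call limit of 1.57. Most transcripts lie near -2.93, and of the 17 above the upper limit 1 has mainly reads of 1 gene.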

How the data were processed

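The deposited files give each read sequence with its count, whole-number counts made by the authors; the submitters' processing notes name the build mm9, and for the aligner and the trimming no source used here names a tool. Every read of 18 to 35 nt was matched exactly, on both strands, to the transcripts of GENCODE vM21 (GRCm38) and put in the first class that held it: miRNA gene, other small RNA, repeat-like (10 or more genes other than pseudogenes, on either strand), sense, antisense or unmatched. Reads of several genes were divided evenly. Reads starting with the first 18 bases of a RefSeq mature miRNA, with up to 3 added 3′ bases and at most 28 nt long, were also counted as miRNA; RefSeq's table is not complete. Coordinates are those of GRCm38. Reads were scaled to RPM. With 1 library per group, no test was made, and a size limit from both WT libraries stood in. Ratio limits used at least 3 reads per library. The 8 genes per class with most reads, and the 5 highest and 5 lowest ratios, were named, with members of lists. The members and lists were chosen with earlier results of these data known. The matching was tested on planted reads, and the call rule for transcripts on simulated counts with planted fold changes. Those changes were larger than the limit and had counting noise only, so their recovery does not measure differences between libraries. Python 3.11.15, numpy 2.4.6, pandas 2.3.3, scipy 1.17.1 and numba 0.67.0 were used, and edgeR 4.0.16 in R 4.3.3 for TMM scaling only. tRNA genes of the nucleus, transposon consensus sequences and the genome outside transcripts were not analysed here.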

Additional observations from a re-analysis of the deposited data

How the results depend on the processing

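No paired analysis was possible because each genotype has 1 pooled library and the labels give no replicate numbers; for the same reason no library could be left out. The limit between WT libraries was computed anew under each setting, except for the fixed 4-fold limit. A count of genes called can thus move with the limit as well as with the ratios. For miRNA genes, a minimum of 50 reads in place of 1000 gave 8 higher. For other small RNA genes the number called lower was 0 with scaling to miRNA reads and 0 with TMM, 15 with a minimum of 50 reads, 89 with a fixed 4-fold limit and 21 at 18 to 28 nt, so this count rests on the settings. For transcripts the number higher was 5 with scaling to miRNA reads, 86 with TMM (scaling factors 2.72 for the WT and 0.368 for the KO), 29 with a minimum of 50 reads, 9 at 24 to 32 nt, 3 with distinct sequences and 4 with reads of 1 gene only. The number of transcripts lower was 44 with TMM, 2531 with a minimum of 50 reads and 12 with distinct sequences.

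Scaling to miRNA reads lowers every log2 ratio by 0.23. It gave a log2 KO over WT of -1.44 for other small RNA over 18 to 35 nt and, at 24 to 28 nt, -1.80 for repeat-like, -2.34 for sense and -1.66 for antisense reads. Distinct sequences were scaled to all distinct sequences of the library, 2279855 in the WT and 966003 in the KO. Over the same lengths this gave 0.95 for miRNA genes (18 to 35 nt), 0.13 for other small RNA and 0.51 for repeat-like reads. For the latter pair the direction was reversed. Sense reads had -0.69 and antisense reads -0.21. The reversal rests on this scaling, as unscaled distinct sequences were fewer in the KO. They numbered 12635 (WT) and 10367 (KO) for miRNA genes, 21705 and 10056 for other small RNA, and 12925 and 7801 for repeat-like reads. Taking all reads of 24 to 32 nt, scaled to the library, gave -1.62 for repeat-like, -2.20 for sense and -1.57 for antisense reads. The share of 24 to 28 nt had a log2 ratio of -0.49, and -0.19 without miRNA genes or -0.33 over distinct sequences. The share of 29 to 35 nt had -3.49, and -2.97 or -1.96. The cause of these shifts was not tested. At 29 to 35 nt depth limits the KO, which had 34077 reads there against 489774 in the WT.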

Other observations

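Most piRNA-sized sequences were not shared between the libraries, and the abundant ones were. Of 390573 distinct sense sequences of 24 to 28 nt in the WT, 11.6% were also read in the KO, and of 102811 in the KO, 44.1% were also read in the WT. Of the 1000 most abundant in the WT, 998 were read in the KO, with a median log2 ratio of -3.08; this list was chosen by its WT counts, which lowers the ratio by itself. In the KO, 68.7% of the distinct sequences were read once, against 53.9% in the WT.

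Reads of miRNA genes at 24 to 28 nt had A at position 10 in 20.8% of cases in the WT and 8.72% in the KO, and a first U in 88.7% and 87.4%. Of reads that matched no transcript, 31.4% in the WT and 52.1% in the KO were mature miRNAs with bases that differ from the gene at the 3′ end. Beyond them, unmatched reads can come from nuclear tRNAs, transposons or other genome sequence, which were not analysed here.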
